A study of Mus musculus with 3 samples.

Results

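The MCM helicase genes Mcm2, Mcm3, Mcm4, Mcm5, Mcm6, Mcm7, Mcm8 and Mcm10 were followed in mouse neural stem cells in which the histone demethylase family gene Phf2 had been lowered by RNA interference. The 8 genes were chosen by symbol, and all 8 were found among the 16977 genes of the table. The cells were neural stem cells of strain C57BL/6J at embryonic day E12.5, cultured with EGF and FGF. They had been infected with a lentivirus carrying a control short hairpin RNA (shControl, 1 library) or a hairpin specific for PHF2 (shPHF2, 2 libraries described as biological replicates). All 3 libraries came from infected cells, and only 1 hairpin label was given for the knockdown. Total RNA without ribosomal RNA was sequenced. The values below are normalised read counts, in which each gene's reads were scaled by a per-library size factor.

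MCM2 to MCM7 form a ring of 6 different ATPase subunits that is loaded onto replication origins in G1 and, together with CDC45 and the GINS complex, becomes the CMG helicase that unwinds DNA in S phase. Cells normally load more rings than they fire, and the spare origins are known to protect replication under stress. The genes for these subunits are classical E2F targets, and dividing neural progenitors express them strongly. MCM8 is a related ATPase that acts with MCM9 in homologous recombination. MCM10 is not part of the ring and helps to activate the CMG helicase at origins.

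The promoters of the MCM genes were read from the RefSeq promoter table (GRCm38.p6, 250 bases before to 50 bases after an annotated start), which held 7 of the 8 members. Mcm4 was not matched. The E2F octamers TTTCCCGC, TTTGGCGC, TTTCGCGC and TTTGCCGC were searched on both strands, because the members moved together and are known E2F targets. At least 1 octamer was found for 5 of the 7 members, Mcm3, Mcm5, Mcm6, Mcm7 and Mcm8. Counted the same way over all genes of the promoter table, 2.61% of 27025 held an octamer, and 2.26% of the 32851 single promoters did. The 30-base windows that hold the matches are shown 5′ to 3′ on the strand of the gene, with the octamer or its reverse complement in capitals.

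Mcm3, chr1:20820275-20820304, minus strand: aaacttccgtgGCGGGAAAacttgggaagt
Mcm3, chr1:20820263-20820292, minus strand: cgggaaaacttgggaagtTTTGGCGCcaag
Mcm5, chr8:75109345-75109374, plus strand: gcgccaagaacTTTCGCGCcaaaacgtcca
Mcm6, chr1:128359797-128359826, minus strand: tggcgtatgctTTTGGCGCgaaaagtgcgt
Mcm6, chr1:128359734-128359763, minus strand: gattggacgggTTTGGCGCgaagtagctca
Mcm7, chr5:138172030-138172059, minus strand: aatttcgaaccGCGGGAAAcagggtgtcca
Mcm7, chr5:138171849-138171878, minus strand: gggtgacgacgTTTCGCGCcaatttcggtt
Mcm8, chr2:132816161-132816190, plus strand: gcagaagcgcgtcatagacGCGCCAAAaaa

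In Mcm5 and in the upstream window of Mcm6, a forward octamer overlapped a reverse one (TTTCGCGC with TTTGGCGC), so that these windows held 2 matches in near-palindromic order. Counted from 0 at the annotated start base, the matches began at -153 and -149 in Mcm5, at -110, -106 and -47 in Mcm6, at -165 and 16 in Mcm7, at 19 and 38 in Mcm3 and at 39 in Mcm8. The matches of Mcm3 and Mcm8 thus lay just after the start, and those of Mcm5 and Mcm6 before it. TTTGCCGC was found in 0 of the 7 members. Mcm7 had another RefSeq promoter (chr5:138171217-138171516), which held 0 octamers. The start of Mcm7 in GENCODE M21, at 138172422, lies upstream of both of its RefSeq promoters. No octamer was in the windows of Mcm2 and Mcm10, which says only that these letters are not there. The CCAAT box, searched on both strands, was found for 7 of 7 members and for 41.1% of all genes of the promoter table (37.4% of single promoters). A match of letters is a description and does not show binding.

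The deposited table held 26302177 to 37171026 reads in genes per library, and between 16211 and 16578 genes had at least 1 read. Phf2 itself had 2593 normalised reads in the control and 985 and 714 in the shPHF2 libraries, so that 38.0% and 27.5% of the control level were left (limma, adjusted p = 0.0085). The control came from a single library, so its own spread could not be estimated, and the 1 residual degree of freedom of the test comes from the shPHF2 libraries. In bulk RNA, fewer cells of a type (here cells in S phase) and less RNA per cell cannot be told apart.

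Every MCM gene was lower in both shPHF2 libraries than in the control library. All 8 passed the filter on low values, and 8 of 8 were called lower and 0 higher, at adjusted p-values from 0.0066 to 0.028 (limma across 14148 genes, Benjamini-Hochberg). Over all genes tested, 7.11% were called lower and 7.22% higher. The median of the members was -1.27 on the log2 scale (-1.21 for replicate 1 alone and -1.30 for replicate 2 alone), while the median over all genes tested was -0.0057. Summed over the 8 genes, the control had 57657 normalised reads, replicate 1 had 25843 and replicate 2 had 23973. The replicates thus held 44.8% and 41.6% of the control sum. The limma calls changed with the filter on low values, the normalization and the mean-variance trend. With no filter, with quantile normalization or with the trend dropped, limma called 0 of 8 members and 0 genes of the whole table. In each of these settings 8 of 8 members had an unadjusted p under 0.05. So did 3893 of 16977 genes with no filter, 3700 of 14148 with quantile normalization and 3300 of 14148 without the trend. With edgeR and DESeq2, 8 of 8 members were called lower, beside 8.06% and 6.91% of all genes tested.

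**Figure D1:**
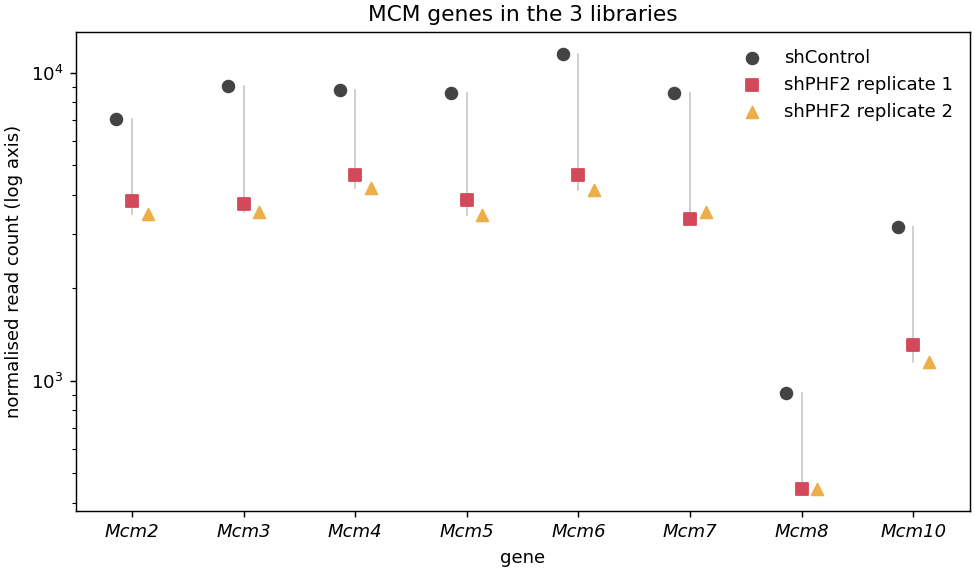
Normalised read counts (log axis) of the 8 MCM genes (horizontal axis) in the shControl library (circles) and the 2 shPHF2 libraries (squares and triangles); grey lines join the lowest and highest library. Each gene's control point lies above both of its shPHF2 points, and Mcm8 is the lowest of the 8 genes in every library.

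Among the subunits of the ring, Mcm6 and Mcm7 belong, with Mcm4, to the part of the complex that carries helicase activity when purified. Mcm6 (chromosome 1, 128331590 to 128359664) had 11497 normalised reads in shControl, against 4647 in shPHF2 replicate 1 and 4161 in replicate 2. It was the most abundant member in the control by read count and had the lowest fold change of the 8, with a log2 value of -1.39 (SE 0.18; limma, adjusted p = 0.0066). Mcm7 (chromosome 5, 138164583 to 138172422), whose protein is ubiquitylated when the helicase is taken off DNA, had 8600, 3348 and 3534 normalised reads in the same order. Its log2 fold change was -1.32 (SE 0.17; limma, adjusted p = 0.0068). It was the only subunit of the ring with a lower value in replicate 1 than in replicate 2. Of its 4426 annotated exon bases, 557 also belong to other genes, so reads there may have been set aside as ambiguous; the other 7 members share 0 exon bases with other genes (GENCODE M21).

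Mcm4 (chromosome 16, 15623897 to 15637400) encodes the subunit that the kinase CDC7 phosphorylates to activate the ring. It had 8792 normalised reads in shControl, 4659 in replicate 1 and 4225 in replicate 2. Both shPHF2 values were close to 50% of the control, at 53.0% and 48.1%, and the log2 fold change was -0.99 (SE 0.18; limma, adjusted p = 0.014). Mcm2 (chromosome 6, 88883474 to 88898780), whose protein also binds histones H3 and H4, had 7067, 3832 and 3478 normalised reads in the same order. With 54.2% and 49.2% of the control left, it fell by the smallest amount of the 8 genes, by 0.95 on the log2 scale (SE 0.18; limma, adjusted p = 0.015).

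Mcm5 (chromosome 8, 75109569 to 75128439) encodes the subunit that closes the gate of the ring with MCM2. It had 8607 normalised reads in shControl, 3863 in replicate 1 and 3455 in replicate 2. Its log2 fold change, -1.24 (SE 0.18; limma, adjusted p = 0.0080), lay between those of its gate partner Mcm2 and Mcm6. Mcm3 (chromosome 1, 20802968 to 20820312), whose protein contacts the origin recognition complex and CDC6 during loading, had 9020, 3749 and 3523 normalised reads in the same order. Its log2 fold change was -1.31 (SE 0.17; limma, adjusted p = 0.0068), and the shPHF2 values, at 41.6% and 39.1% of the control, differed little from each other.

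Outside the ring, Mcm10 (chromosome 2, 4989714 to 5012791) had 3164 normalised reads in shControl, 1301 in replicate 1 and 1153 in replicate 2. Its log2 fold change, -1.37 (SE 0.19; limma, adjusted p = 0.0071), was close to that of Mcm6. The ratio of Mcm10 to Mcm6 reads was 0.275 in shControl, 0.280 in replicate 1 and 0.277 in replicate 2, so these 2 genes kept almost the same ratio in the 3 libraries. Mcm8 (chromosome 2, 132816141 to 132844197) was the least abundant member, with 910 normalised reads in shControl and 444 and 445 in the replicates. Its log2 fold change was -1.03 (SE 0.24; limma, adjusted p = 0.028), the largest adjusted p of the 8.

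The log2 fold changes of the members differed between replicates by 0.0017 (Mcm8) to 0.17 (Mcm10), against a median absolute difference of 0.21 between the shPHF2 libraries over all genes tested. That median includes genes with means down to 10, against 600 (Mcm8) to 6768 (Mcm6) for the members, and was not matched for read count. Replicate 2 had the lower value for 6 of the 8 genes, the exceptions being Mcm7 and Mcm8. Mcm2, Mcm4 and Mcm8 had log2 fold changes between -1.06 and -0.88 in the separate replicates, and the other 5 members had values between -1.47 and -1.16. These ranges do not overlap, but the gap between them is smaller than the standard error of a single member, 0.17 to 0.24, and the difference between members was not tested. The members' fold changes ranked between percentile 2.49 (Mcm6) and percentile 7.41 (Mcm2) of all genes tested, counted from the lowest. In the authors' deposited table the 8 genes had log2 fold changes from -1.38 (Mcm6) to -0.95 (Mcm2), and Mcm8 had the highest adjusted p, 0.018.

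**Figure D2:**
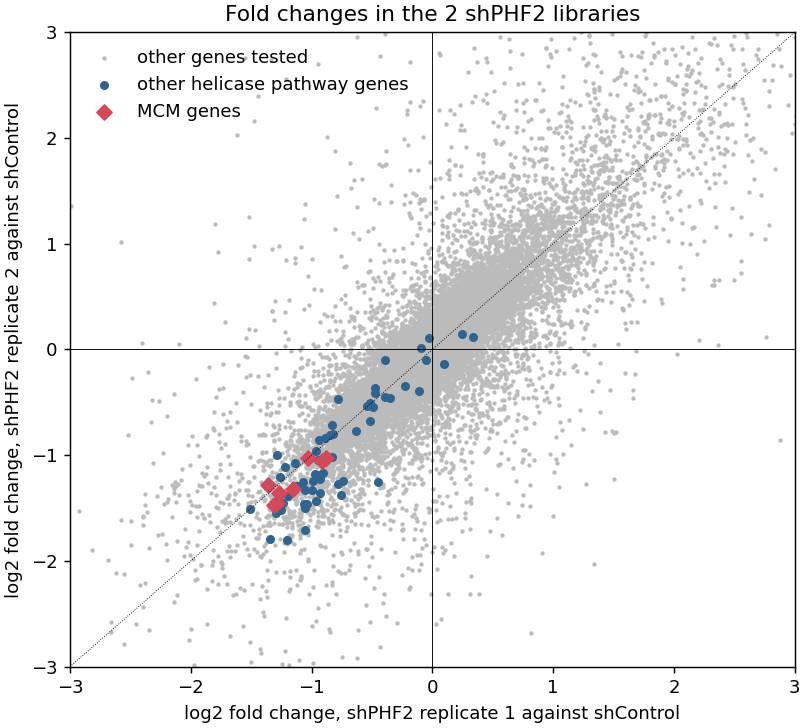
Log2 fold change against shControl in shPHF2 replicate 1 (horizontal axis) and replicate 2 (vertical axis). Grey points are the genes tested and red diamonds the 8 MCM genes. Blue points are other genes of the helicase pathway, E2F and pocket protein genes included. The dotted line marks equal values, and 252 genes lie outside the axes. The MCM genes form a tight group near the dotted line, between -1.36 and -0.88 in replicate 1 and between -1.47 and -1.02 in replicate 2. The axes share the control library.

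The stoichiometry of the ring was described at the RNA level only, from the values of Mcm2 to Mcm7 per kilobase. Each subunit was given its share of their sum, and equal levels would give each subunit 16.7%. Shares of RNA do not give the subunit ratios of the protein ring. Because Mcm2 and Mcm4 fell least and Mcm6 fell most, the mix of the 6 transcripts shifted while all of them fell. Scaled by total exon length, Mcm4 made up 19.7% of the sum in shControl, 23.3% in replicate 1 and 22.8% in replicate 2. The share of Mcm2 was 8.17% in shControl, 9.89% in replicate 1 and 9.67% in replicate 2. The share of Mcm6 went the other way, with 19.8% in shControl, 17.9% in replicate 1 and 17.2% in replicate 2. Mcm3 had 19.3%, 17.9% and 18.2% in the same order. Mcm5 stayed nearest to its control share, with 17.3%, 17.4% and 16.7%. Mcm7 had 15.6%, 13.6% and 15.4%, a shift seen mainly in replicate 1.

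The part of the sum that changed hands, which is the total of the gains in share, was 4.96 ± 0.57 percentage points (SD, n = 2) between shPHF2 and shControl. It was 5.37 points for replicate 1 and 4.55 points for replicate 2, against 2.06 points between the replicates. With 1 control library, an exact permutation test cannot give a p under 0.33, so the shift is a description. Counting error is small at this depth. The ratio of Mcm2 to Mcm6 reads was 0.615 in shControl (95% Wilson interval 0.597 to 0.633), 0.825 in replicate 1 (0.793 to 0.857) and 0.836 in replicate 2 (0.796 to 0.878). The ratio of Mcm4 to Mcm6 reads was 0.765 in shControl (0.744 to 0.786), 1.003 in replicate 1 (0.966 to 1.04) and 1.02 in replicate 2 (0.969 to 1.06). For both ratios the control interval lay below the intervals of the replicates, while Mcm2 and Mcm4 kept a ratio of 0.804, 0.822 and 0.823 to each other. The ratio of Mcm5 to Mcm6 reads was also higher in both replicates, at 0.749, 0.831 and 0.830. For Mcm3 to Mcm6 (0.785, 0.807 and 0.847), the control interval (0.763 to 0.806) overlapped that of replicate 1 (0.776 to 0.839). For Mcm7 to Mcm6, the ratio was 0.748 (0.727 to 0.769), 0.720 (0.692 to 0.750) and 0.849 (0.809 to 0.892). There the replicates lay on opposite sides of the control, with intervals apart from each other. The intervals cover counting error only, not the spread between cultures.

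How even the levels were depends on the length used. Total exon length joins the exons of all annotated transcripts of a gene, 7 for Mcm2, which puts Mcm2 at 6956 bases although its longest coding sequence has 2712. With coding length, Mcm2 still had the lowest share in all 3 libraries (11.7%, 14.2% and 13.9%) and Mcm6 the highest (21.0%, 19.0% and 18.2%). The coefficient of variation over the 6 subunits was then 18.5% in shControl, 11.0% in replicate 1 and 9.89% in replicate 2, so the transcripts were closer to equal levels in shPHF2. It was also lower in both shPHF2 libraries with the longest transcript (11.5%, 7.30% and 9.33%), with the transcript of the longest coding sequence (21.9%, 14.1% and 11.2%) and without length scaling (16.1%, 13.1% and 9.67%). With total exon length, the exception among the 5 ways of scaling, it was 26.8%, 27.3% and 25.5%. The directions of the shares of Mcm2, Mcm4 and Mcm6 were the same with each length used. Mcm8 and Mcm10 lay well below the ring genes by coding length, at 364 and 1192 normalised reads per kilobase in shControl, against 2606 for Mcm2 and 4668 for Mcm6.

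**Figure D3:**
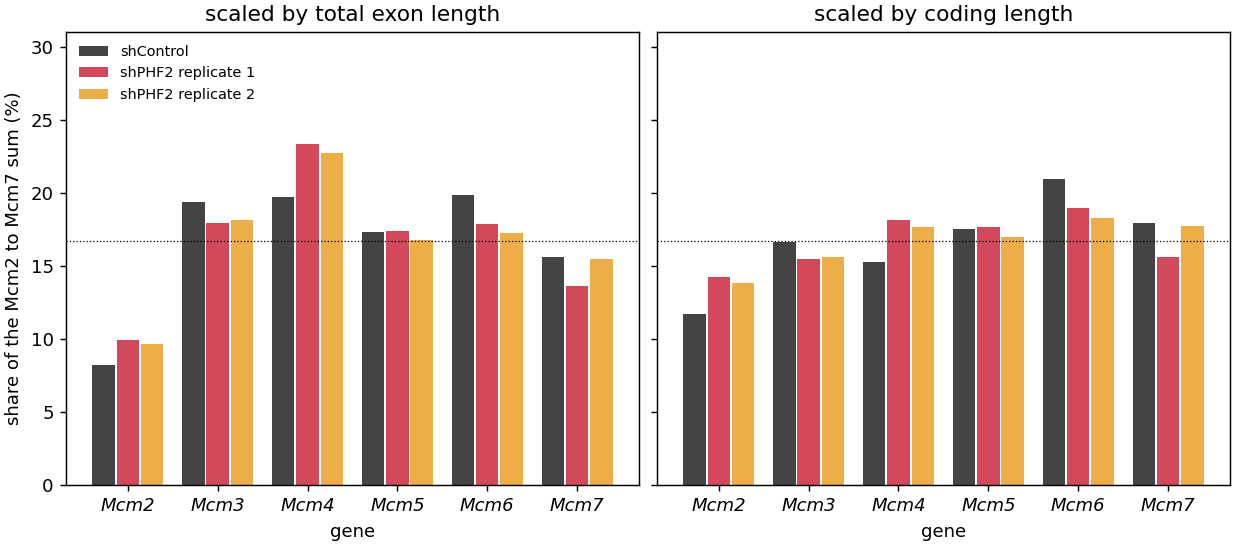
Share of each subunit's RNA in the sum of Mcm2 to Mcm7 (percent, vertical axis) in each library. Values are scaled by total exon length (left) or coding length (right). Bars are single libraries and the dotted line is the share at equal levels. Mcm2 and Mcm4 have larger shares, and Mcm6 a smaller share, in both shPHF2 libraries than in shControl in both panels.

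The next genes encode proteins that bind or resemble the ring. Of 6 genes for partners and paralogs, 2 fell and 0 rose (limma). Over all genes tested, 7.11% were called lower and 7.22% higher. BC030867, the gene of the MCM8 and MCM9 loading factor HROB, had 808 normalised reads in shControl, 384 in replicate 1 and 339 in replicate 2 (log2 fold change -1.16; limma, adjusted p = 0.025). Mms22l, whose protein acts at stalled forks with TONSL, had 2411, 1001 and 928 (log2 fold change -1.32; limma, adjusted p = 0.0085). Mcm9, the partner of Mcm8, had 649, 554 and 511 normalised reads and did not pass (log2 fold change -0.29; limma, adjusted p = 0.46). The ratio of Mcm8 to Mcm9 reads was 1.40 in shControl (95% Wilson interval 1.27 to 1.55), 0.802 in replicate 1 (0.715 to 0.898) and 0.870 in replicate 2 (0.757 to 1.0005). Mcmbp, whose protein binds MCM subunits outside the loaded ring, had 4417, 3174 and 3425 normalised reads (log2 fold change -0.42; limma, adjusted p = 0.14). Its read ratio to Mcm6 was 0.384 in shControl, 0.683 in replicate 1 and 0.823 in replicate 2. Tonsl and Mcmdc2 did not pass either, at log2 fold changes of -0.85 and -1.38 (limma, adjusted p = 0.12 and 0.16), and Mcmdc2 had only 77.7 normalised reads in the control.

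The other genes of the helicase pathway were read from lists of the steps before and after loading. With the partners and paralogs above and the E2F and pocket protein genes below, there were 8 lists. Pooled over these 8 lists, 39 of 60 genes fell and 0 rose, and the median log2 fold change was -1.03. Over all genes tested, 7.11% were called lower. Of 11 genes for origin recognition and ring loading, 6 fell and 0 rose (limma). Cdc6, the loading ATPase, had 2238 normalised reads in shControl and 934 and 968 in the replicates (log2 fold change -1.23; limma, adjusted p = 0.0090). Cdt1, which brings the ring to the origin, had 1955, 837 and 907 (log2 fold change -1.17; limma, adjusted p = 0.012), and its inhibitor geminin (Gmnn) had 1080, 574 and 481 (log2 fold change -1.04; limma, adjusted p = 0.028). Orc5, by contrast, had 1164, 1123 and 1085 normalised reads and a log2 fold change of -0.08 (limma, adjusted p = 0.83). Orc1 missed the threshold with limma (log2 fold change -1.03, adjusted p = 0.056) and passed it with edgeR (adjusted p = 0.045).

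Of the 5 genes that complete the CMG helicase, 4 fell and 0 rose, beside 7.11% of all genes tested that were called lower (limma). Cdc45 had 1680 normalised reads in shControl and 686 and 573 in the replicates (log2 fold change -1.42; limma, adjusted p = 0.0096). Gins1, Gins2 and Gins3 had log2 fold changes of -1.38, -1.08 and -1.12, and Gins4 did not pass, at -0.51 (limma, adjusted p = 0.13). Of the 9 firing genes, 9 fell; Cdc7, the kinase of the ring, had 3290 normalised reads in shControl and 1296 and 946 in the replicates, a log2 fold change of -1.57 (limma, adjusted p = 0.0085). Of 3 fork protection genes 3 fell, with log2 fold changes of -1.16 for Timeless, -1.10 for Tipin and -1.39 for Clspn. Of 8 genes for polymerase epsilon and the alpha-primase complex 6 fell, among them Pole at -1.50, while Pole3 and Pole4 did not pass, at -0.60 and -0.52 (limma, adjusted p = 0.095 and 0.092).

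Of 5 genes that act when the helicase is unloaded, 2 fell, where 7.11% of all genes tested were called lower (limma). Traip and Lrr1, the ubiquitin ligase genes that target the CMG helicase, had log2 fold changes of -1.25 and -1.51 (limma, adjusted p = 0.019 and 0.030). Vcp, the unfoldase gene with many other tasks in the cell, had 4965 normalised reads in shControl and 5894 and 5510 in the replicates and did not pass (log2 fold change 0.20; limma, adjusted p = 0.48). Of 13 genes for E2F factors, their partners and the pocket proteins, 7 fell and 0 rose. E2f2, E2f7, E2f8 and the pocket protein gene Rbl1 had log2 fold changes of -1.08, -1.29, -1.19 and -1.28. E2f1 had 531, 308 and 385 normalised reads (log2 fold change -0.62; limma, adjusted p = 0.17), and Rb1 had 1735, 1703 and 1870 (log2 fold change 0.04; limma, adjusted p = 0.91).

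**Figure D4:**
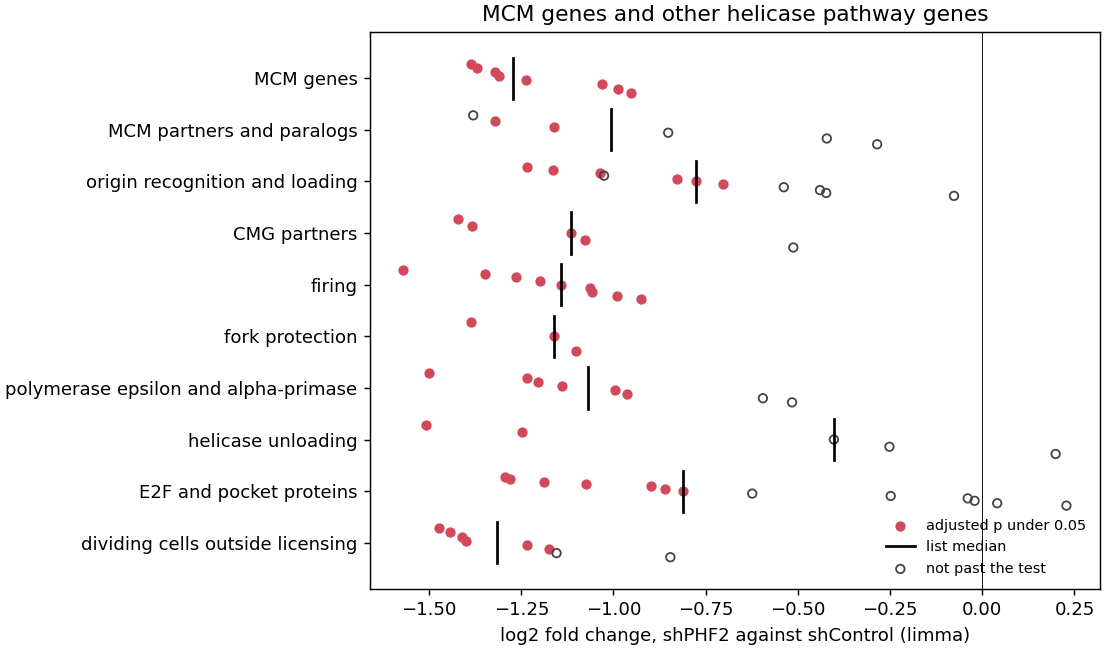
Log2 fold change of shPHF2 against shControl (horizontal axis, limma) for each gene of the MCM set, the 8 pathway lists and the dividing-cell markers; filled points have an adjusted p under 0.05, open points do not, and black bars are list medians. All 8 MCM genes are filled, and the genes to the right of 0 are open points of the unloading and E2F lists.

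Mcm4, Mcm7 and Mcm8 each share a start region with a gene on the opposite strand (starts within 1000 bases, GENCODE M21, GRCm38), and the values of these neighbours follow. Trmt6, a subunit gene of a transfer RNA methyltransferase, starts 86 bases from Mcm8. It had 2211 normalised reads in shControl and 1221 and 1151 in the replicates, and fell by 0.90 on the log2 scale (limma, adjusted p = 0.022), near the -1.03 of Mcm8. Prkdc, the gene of the DNA-dependent protein kinase, starts 466 bases from Mcm4 and had 2045 normalised reads in shControl, 2087 in replicate 1 and 1642 in replicate 2. Its log2 fold change was -0.14 (limma, adjusted p = 0.68), against -0.99 for Mcm4. Ap4m1, an adaptor complex gene, starts 420 bases from Mcm7 and had 910, 752 and 641 normalised reads, a log2 fold change of -0.39 (limma, adjusted p = 0.29), against -1.32 for Mcm7. Ap4m1 starts inside Mcm7 and shares annotated exon bases with it, so reads there may have been set aside as ambiguous. The difference within each pair was not tested.

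The genes most like the ring were those whose log2 fold changes in the 2 replicates lay nearest to the mean of Mcm2 to Mcm7, which was -1.15 in replicate 1 and -1.25 in replicate 2. Among 11475 other genes with a mean of at least 100, the nearest 6 were Hat1, which encodes a histone acetyltransferase for new histone H4, the DNA helicase gene Blm, the deadenylase gene Cnot6, Pola1, Prim1 and Pold1. Their distances ran from 0.033 (Hat1) to 0.061 (Pold1) on the log2 scale, against 0.067 (Mcm5) to 0.35 (Mcm2) for the members themselves. Pola1, Prim1 and Pold1 encode subunits of replicative polymerases and primase. Likeness over 3 libraries is weak: 371 genes lay nearer than the farthest member.

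Markers of the cells were read beside these values. Of 10 neural stem and radial glia markers, 0 fell and 1 rose with limma (Sox2, log2 fold change 0.68, adjusted p = 0.048). Over all genes tested, 7.11% were called lower and 7.22% higher. The median log2 fold change of the 10 markers was -0.07, with both directions among them. Their sum was 104% and 117% of the control in the replicates, and Vim rose most within it (77235, 116785 and 132042 normalised reads). Pax6 had 1392, 1046 and 691, and Hes5 had 39.9, 20.0 and 14.5, lower in both replicates without a call. Sox2 missed the threshold with edgeR (adjusted p = 0.054) and passed it with DESeq2 (adjusted p = 0.020), which also called Vim (adjusted p = 0.012) and Prom1 (adjusted p = 0.036) higher. Nes had 118161, 101381 and 98053 normalised reads, so the labelled cell type had its defining marker in all 3 libraries. Of 8 markers of dividing cells outside licensing, 6 fell and 0 rose with limma, with a median log2 fold change of -1.32 and a sum at 51.5% and 33.6% of the control, beside the 44.8% and 41.6% of the MCM genes. DESeq2 called the other two, Mki67 (adjusted p = 0.0014) and Plk1 (adjusted p = 0.0498), lower as well, and edgeR called Mki67 (adjusted p = 0.033). Astrocyte markers summed to 478 normalised reads in shControl, 1263 in replicate 1 and 1917 in replicate 2. Of the 4 measured, 1 rose, S100b, with 331, 1094 and 850 (log2 fold change 1.54, limma, adjusted p = 0.011). Aldh1l1, with 146, 152 and 1009, was high in replicate 2 only and was not called (limma, adjusted p = 0.32). Gfap had 1.99, 10.8 and 20.5. Neuron markers summed to 61857, 41104 and 40312, mostly Map2, with 0 of 7 called by limma. The sum does not stand for the other markers, as the median log2 fold change of the 7 was 0.03. Tubb3 had 104, 198 and 346 normalised reads (log2 fold change 1.33, limma, adjusted p = 0.070), and Dcx had 38.9, 27.5 and 106. DESeq2 called Map2 lower (log2 fold change -0.65 with limma; DESeq2 adjusted p = 0.019, limma adjusted p = 0.12). Oligodendrocyte lineage markers summed to 69596, 64824 and 84161, with 0 of 5 called by limma, edgeR or DESeq2. Pdgfra had the lowest adjusted p among them with limma (0.071), edgeR (0.060) and DESeq2 (0.070). It had 539, 303 and 159 normalised reads, a log2 fold change of -1.29 with limma. The sums ran from 117 to 206 for microglia and macrophages, from 122 to 215 for endothelium and pericytes, and from 6.98 to 14.5 for fibroblasts. Of the 42 markers of cell types measured, 4 were at 0 in shControl (Aqp4, Aif1, Tmem119 and Col1a2) and 1 at 0 in both shPHF2 libraries (Cldn5), and 5 others were not analysed here. The part of cell types and of cell division in the MCM values was not tested.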

How the data were processed

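The authors' processing named HISAT2, HTSeq, DESeq2 and the build mm10, per the submitters' processing notes; tool versions, the annotation, the strand setting and the handling of multi-mapped reads were not given in the sources used here. The deposited signal values are read counts that the authors divided by DESeq2 size factors, per the file headers and the values (100% whole multiples of one step per library, within 0.001). The deposited table also holds the authors' log2 fold changes, a Wald score and p-values. 4 rows that name no gene were left out, so that 38.5% to 38.6% of the reads in the table were used, and 0 columns were unused.

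The main test used limma 3.58.1 in R 4.3.3 on log2(value + 1) (mean-variance trend, two-sided) for 14148 genes with a mean of at least 10; adjusted p under 0.05 was called. It assumes that the single control varies as the shPHF2 libraries do (1 residual, 6.94 prior degrees of freedom). Fold changes on this scale understate the change of low genes. edgeR 4.0.16 and DESeq2 1.42.0 were run on the recovered reads. The scripts were tested on simulated data (mean of 5 runs, 200 changed genes of 14148). Limma recovered 42.8% of the 2-fold and 80% of the 4-fold changes. Of the calls at an adjusted p under 0.05, 12.1% were false with limma and 11.1% with edgeR, above the nominal 5%. In the data, limma called 14.3% of the genes tested, a larger share than was changed in the simulation. These rates may therefore not carry over to the data. The p-values measure only the spread between these libraries. All 8 members, the pathway lists, head-to-head neighbours and the 6 most alike genes were named by rule; members and lists were chosen with earlier results of these data known. GENCODE M21 (GRCm38) gave positions and lengths, and RefSeq promoters (GRCm38.p6) gave sequences.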

Additional observations from a re-analysis of the deposited data

How the results depend on the processing

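The direction of all 8 MCM genes was the same in every alternative run. 8 of 8 stayed called with a pseudocount of 0.5 or 5, a minimum mean of 50, TMM scaling, edgeR and DESeq2. Of all genes tested, 7.10% and 7.03% were called lower with these pseudocounts, 8.83% with the minimum mean of 50 and 8.10% with TMM scaling. With edgeR and DESeq2 the shares were 8.06% and 6.91%. Limma called 0 of 8 members and 0 genes in all with no filter on low values (adjusted p 0.14 for the members; 3893 genes at an unadjusted p under 0.05), with no trend (0.15 to 0.17; 3300 genes) and with quantile normalization (0.096 to 0.10; 3700 genes); 8 of 8 members had an unadjusted p under 0.05 in each. The cause was not tested. edgeR called 2147 and DESeq2 1982 genes, against 2027. The shift in subunit shares was 4.90 to 5.23 points over the other lengths, including 1 chosen after seeing the data (the transcript with the longest coding sequence), and 4.55 to 5.37 points with 1 shPHF2 replicate left out. Over the settings and with either replicate left out (a value without a test), the log2 fold change ran from -1.02 to -0.83 for Mcm2 and from -1.47 to -1.27 for Mcm6. No scaling moved the median of all genes by over 0.1. The single control could not be left out. No paired analysis was possible because the control has 1 library and the groups share fewer than 2 replicate numbers. The members had 369 to 11534 reads per library, and the spread between control cultures is unknown.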

Other observations

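Mcm7 also hosts 3 microRNA genes on its own strand, Mir25, Mir93 and Mir106b, which are known for targeting cell cycle inhibitors. Their rows held few reads. In the control library and shPHF2 replicates 1 and 2, Mir25 had 44.9, 24.2 and 32.6 normalised reads, Mir93 had 28.9, 31.7 and 18.1, and Mir106b had 11.0, 10.0 and 3.62. Neither of the 2 that passed the filter on low values was called, at log2 fold changes of -0.66 for Mir25 and -0.26 for Mir93 (limma, adjusted p = 0.54 and 0.85), against -1.32 for Mcm7. The standard errors of these values, 0.65 and 0.74, are wide beside the 0.17 of Mcm7. Mir25 and Mir93 overlap annotated exons of Mcm7 transcripts, so reads of the host and of the microRNA genes cannot be told apart there, and the libraries were not made to capture mature microRNAs.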
